A study of Mus musculus with 6 samples.

Results

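Mitochondrial chaperones and proteases were followed through 10 genes in embryonic mouse hearts. The genes were Hspd1, Hspe1, Hspa9, Dnaja3, Trap1, Lonp1, Clpp, Clpx, Yme1l1 and Afg3l2, taken by symbol for their roles in protein quality control. Earlier results of these data were known when they were chosen. They are 10 of the 26199 genes in the expression table, and all 10 were among the 13262 genes with at least 1 FPKM in at least 3 of the 6 libraries, the genes tested. FPKM is the number of sequenced fragments scaled for transcript length and library size, so its values can be compared between genes of different length.

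The study removed Mrps5, a protein of the small subunit of the mitochondrial ribosome, from the developing heart muscle. Control hearts (n = 3) were Mrps5 fl/fl, with both alleles floxed and no Cre. Mutant hearts (n = 3) were Mrps5 fl/fl; cTNT-Cre, in which the cardiac troponin T promoter drives Cre in cardiomyocytes, and Cre itself and the deletion cannot be told apart between these groups. Hearts were labelled as embryonic day 12, where the text of the study gives a slightly later stage, each library came from pooled hearts, and the controls were littermates of the mutants. A figure legend of the study writes the mutant genotype with a wild-type Mrps5 allele beside the floxed one, whereas the labels used here give both as floxed. Whole hearts also hold endothelial, epicardial, mesenchymal and blood cells that the Cre does not target.

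Most mitochondrial proteins are made in the cytosol and imported unfolded, and they must meet the few subunits made inside the organelle in the right proportion. Chaperones of the matrix pull the chains in, fold them and hold them, and ATP-driven proteases of the matrix and inner membrane remove what is damaged or has no partner. When mitochondrial protein synthesis or folding is disturbed, cells can raise these genes through a nuclear program called the mitochondrial unfolded protein response, for which Hspd1, Hspe1, Lonp1 and Clpp are the usual readouts, and through the integrated stress response led by Atf4.

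Promoter sequences are shown for 5 genes, because 4 of them lay among those higher in mutant hearts while Hspe1 did not, and the letters near the start sites differ among them. They are RefSeq windows of 300 bases on GRCm38.p6, from 250 bases before to 50 after the start of transcription, written 5′ to 3′ on the strand of the gene. Windows of 8 of the 10 genes were searched, and those of Hspa9 and Afg3l2 were not. Capitals mark matches, on either strand, to the E-box CACGTG, the amino acid response element core TGATGNAA, pairs of heat shock units (GAANNTTC or TTCNNGAA), the NRF1 core (GCGCA, any base, then GCGC) and the ATF/CREB element TGACGTNA, the last of which was added after the sequences had been seen. The windows are chr17:56626854-56627153 (minus strand) for Lonp1, chr16:4077761-4078060 (minus strand) for Trap1, chr16:4683820-4684119 (plus strand) for Dnaja3, chr17:56990014-56990313 (plus strand) for Clpp and chr1:55087898-55088197 (plus strand) for Hspe1.
Lonp1: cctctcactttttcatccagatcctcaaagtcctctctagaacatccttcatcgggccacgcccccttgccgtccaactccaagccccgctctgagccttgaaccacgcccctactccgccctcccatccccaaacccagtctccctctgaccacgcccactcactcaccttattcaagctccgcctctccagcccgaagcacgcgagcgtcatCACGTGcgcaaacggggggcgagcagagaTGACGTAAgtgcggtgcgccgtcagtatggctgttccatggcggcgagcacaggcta
Trap1: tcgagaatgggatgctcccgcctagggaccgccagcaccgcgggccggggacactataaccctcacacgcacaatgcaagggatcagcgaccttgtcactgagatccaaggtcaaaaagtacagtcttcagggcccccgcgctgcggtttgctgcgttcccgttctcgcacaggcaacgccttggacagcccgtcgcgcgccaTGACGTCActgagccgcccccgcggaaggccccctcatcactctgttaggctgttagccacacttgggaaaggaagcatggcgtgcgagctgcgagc
Dnaja3: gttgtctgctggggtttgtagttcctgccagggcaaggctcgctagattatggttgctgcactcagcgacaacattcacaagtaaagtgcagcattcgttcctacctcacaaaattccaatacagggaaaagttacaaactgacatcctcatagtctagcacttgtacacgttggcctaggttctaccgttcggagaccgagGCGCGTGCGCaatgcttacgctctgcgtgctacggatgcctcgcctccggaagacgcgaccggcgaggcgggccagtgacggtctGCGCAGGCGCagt
Clpp: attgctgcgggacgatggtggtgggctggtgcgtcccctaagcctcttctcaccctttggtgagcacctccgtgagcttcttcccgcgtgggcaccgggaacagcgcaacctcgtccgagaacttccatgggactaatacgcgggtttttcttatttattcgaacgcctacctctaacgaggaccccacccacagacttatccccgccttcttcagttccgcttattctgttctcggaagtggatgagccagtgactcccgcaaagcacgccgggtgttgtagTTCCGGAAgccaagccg
Hspe1: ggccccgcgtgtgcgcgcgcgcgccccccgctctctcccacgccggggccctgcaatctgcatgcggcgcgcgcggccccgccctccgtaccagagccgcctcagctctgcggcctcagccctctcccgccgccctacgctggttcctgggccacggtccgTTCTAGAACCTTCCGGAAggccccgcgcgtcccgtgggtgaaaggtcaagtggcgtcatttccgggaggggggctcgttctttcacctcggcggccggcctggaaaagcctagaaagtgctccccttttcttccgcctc

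The Lonp1 window held an E-box at bases -36 to -31 from the start of transcription and TGACGTAA from -7 to 1. Trap1 held TGACGTCA at -47 to -40, and Dnaja3 held a pair of NRF1 cores, at -48 to -39 and at 38 to 47. Clpp held TTCCGGAA at 34 to 41. In Hspe1 the matches TTCTAGAA, GAACCTTC and TTCCGGAA overlapped in a single run from -89 to -72. This run also lay within an Hspd1 window on the opposite strand that shared 285 bases with the Hspe1 window, since the chaperonin genes are neighbours that are read in opposite directions. Of 32851 promoters, 7.15% held the E-box, 15.1% a heat shock pair, 4.6% the NRF1 core, 2.93% the ATF/CREB element and 3.97% the amino acid response element core. That last core matched no window of the 8 genes searched, which leaves Hspa9 and Afg3l2 unexamined. The other Hspd1 window held an E-box at -80 to -75 and an NRF1 core at -59 to -50, so neither motif was particular to the genes that were higher in mutants. Clpx and Yme1l1 held none of the motifs. A match is a description of the letters and not evidence that a factor binds there.

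Values of single libraries are given below in the order of replicates 1, 2 and 3. Mrps5 (ENSMUSG00000027374) was examined first. Its FPKM was 9.65, 11.4 and 10.4 among the controls and 5.28, 7.41 and 10.4 among the mutants, so the library labelled mutant replicate 3 lay at the control level. A sum over transcripts does not separate mRNA with and without the floxed part. Total FPKM per library was 454692 to 515952, read depth cannot be recovered from these values, and log2 values correlated at 0.979 to 0.986 within groups and at 0.972 to 0.980 between them. Red cell genes made up 12.0% to 13.3% of the FPKM in controls and 23.5%, 10.8% and 21.9% in mutant replicates 1, 2 and 3, with 10 of 10 erythroid markers above 0 in every library. Cardiomyocyte markers were detected in every library, and 12 of 12 were lower in mutants, 7 with an unadjusted p under 0.05 and none with an adjusted p under 0.05. Of all genes tested, 9.43% were lower at that unadjusted threshold. The sum of the 12 markers was 1.71% to 2.01% of the FPKM in controls and 1.24% to 1.53% in mutants. In bulk hearts, fewer cells of a type and less RNA per cell cannot be told apart, and the part of the cardiomyocyte shift in the results below was not tested. The red cell signal, the log2 of the summed FPKM of the erythroid markers, was fitted as a covariate, with values given below.

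None of the 10 genes passed the test after adjustment over all genes. The largest differences were measured for the matrix protease Lonp1, which averaged 2.06 times the control FPKM in mutants, and the import motor Hspa9, at 1.58 times. Dnaja3, Trap1, Afg3l2 and Clpp had smaller differences in the same direction, which for these 4 missed even an unadjusted p of 0.05 when libraries were rescaled to the same total. Hspe1, Clpx and Yme1l1 lay near the control level, and Hspd1 was slightly higher with overlapping groups. In 6 of the 10 genes the 3 mutant libraries all lay above the 3 control libraries, against 7.74% of all genes tested, and in none did they all lie below, against 13.0%.

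These 6 genes also had an unadjusted p under 0.05 from limma on log2(FPKM + 1), a count to be read against 5.58% of all genes that were higher at that threshold, and none was lower, against 9.43%. None of the 10 passed an adjusted p of 0.05 (limma with Benjamini-Hochberg adjustment over all genes tested), a threshold that 0.0829% of all genes passed, 11 in number, with 0.0528% higher in mutants. With array weights in limma, 0 of the 10 passed as well. A log2 fold change above 0 was found in 8 of the 10, against 45.0% of all genes, and the median log2 fold change was 0.24 for the 10 genes and -0.021 for all genes tested. The count depended on the scaling. When each library was rescaled to the same total FPKM, a step that lowers every gene of mutant replicates 1 and 3 relative to the other libraries, these being the libraries with the highest totals and red cell shares, only Lonp1 and Hspa9 kept an unadjusted p under 0.05, against 2.74% of all genes higher at that threshold. When libraries were scaled by their median ratio, or to the same total without red cell genes, all 6 kept an unadjusted p under 0.05 from limma. Of all genes, 7.55% and 7.25% were higher at that threshold in these fits. The p-values measure the spread between these libraries.

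**Figure D1:**
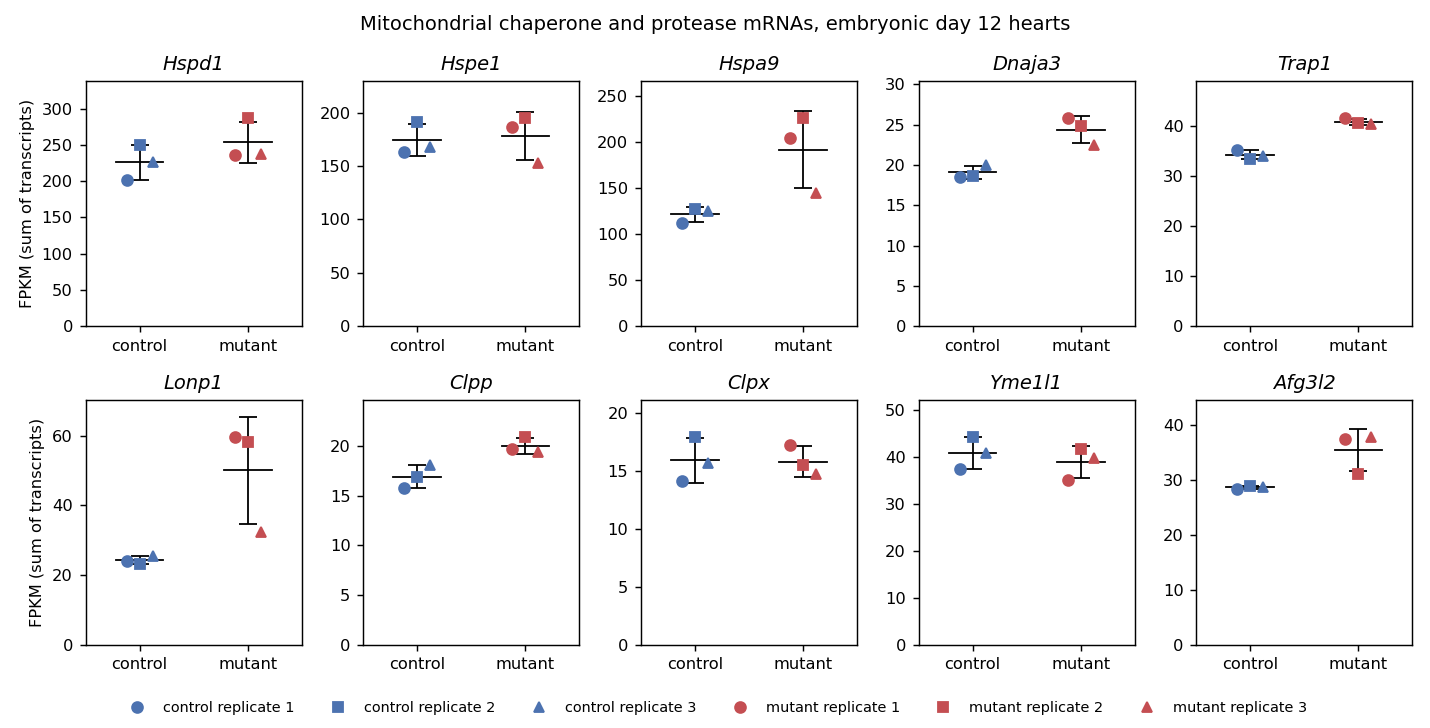
FPKM of the 10 genes in each of the 3 control (blue) and 3 mutant (red) libraries, with the group mean and SD as black bars and a symbol for each replicate number. In Lonp1 and Hspa9 mutant replicates 1 and 2 stand far above the controls with mutant replicate 3 nearer to them, while in Trap1 the 3 mutant values sit together at 40.4 to 41.6 FPKM above controls at 33.5 to 35.3.

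Lonp1 (ENSMUSG00000041168) encodes the ATP-dependent protease of the matrix that degrades oxidised and misfolded proteins and also binds mitochondrial DNA. Its FPKM was 24.2, 23.1 and 25.6 among the controls and 59.7, 58.3 and 32.4 among the mutants. The mutant libraries were thus 2.46, 2.40 and 1.33 times the control mean, and the lowest of them was still above the highest control. The log2 fold change was 0.96 (standard error 0.21, 95% interval 0.48 to 1.45), with an adjusted p of 0.139 from limma. Leaving out the library labelled mutant replicate 3 gave 1.25 and an adjusted p of 0.000474 from limma.

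Clpp (ENSMUSG00000002660), the proteolytic barrel of the other soluble matrix protease, had 15.8, 16.8 and 18.1 FPKM among the controls and 19.7, 20.9 and 19.4 among the mutants. The groups did not overlap, but the nearest values were close. Its log2 fold change was 0.23 (standard error 0.08, 95% interval 0.04 to 0.43; adjusted p = 0.264 from limma). Clpx (ENSMUSG00000015357), the unfoldase that feeds proteins into Clpp, had 14.1, 17.9 and 15.7 FPKM in controls and 17.3, 15.5 and 14.7 in mutants, with overlapping groups. Its log2 fold change was -0.0054 (95% interval -0.25 to 0.24; adjusted p = 0.990 from limma), and the sign turned with the scaling, to 0.030 when libraries were scaled by their median ratio. The interval leaves room for a modest difference either way and does not show that Clpx was equal in both groups.

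The soluble matrix proteases were also set against each other within each library. The ratio of Lonp1 to Clpp FPKM averaged 1.44 ± 0.0809 among controls and 2.49 ± 0.725 among mutants (SD, n = 3 each), without overlap (exact permutation test, two-sided, p = 0.1, adjusted p = 0.25 over 5 ratios). With 3 libraries against 3, 0.1 is the smallest p this test can give. The ratio of Clpx to Clpp was 0.943 ± 0.107 in controls and 0.791 ± 0.0730 in mutants (SD, n = 3 each), with overlap (exact permutation p = 0.2). From the most abundant transcript of each gene alone it was 0.665 ± 0.0521 and 0.544 ± 0.00289, without overlap (exact permutation p = 0.1).

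Hspa9 (ENSMUSG00000024359) encodes mitochondrial Hsp70, or mortalin, which drives import and the first folding steps in the matrix. Its FPKM was 112, 127 and 126 among the controls and 205, 226 and 145 among the mutants. As in Lonp1, mutant replicate 3 was the lowest mutant library and still above the highest control. The log2 fold change was 0.63 (standard error 0.16, 95% interval 0.26 to 1.00), with an adjusted p of 0.162 from limma. Without the library labelled mutant replicate 3 it was 0.82, with an adjusted p of 0.00755 from limma. Lonp1 and Hspa9 were the only 2 of the 10 to pass the adjusted threshold in that fit, which 2.03% of all genes passed, and no other single library that was left out brought a gene of the 10 past it.

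Mitochondrial Hsp70 works with J-proteins, which deliver substrates, and with the nucleotide exchange factor Grpel1, which lets them go. The J-protein gene Dnaja3 (ENSMUSG00000004069) had 18.5, 18.7 and 20.0 FPKM among the controls and 25.8, 24.8 and 22.5 among the mutants. The groups did not overlap, and the log2 fold change was 0.34 (standard error 0.09, 95% interval 0.14 to 0.53; adjusted p = 0.162 from limma). Grpel1 (ENSMUSG00000029198) had 13.8, 14.6 and 14.0 FPKM in controls and 13.7, 15.1 and 14.2 in mutants, with overlapping groups. It differed by 0.020 on the log2 scale, with an adjusted p of 0.934 from limma. The ratio of Grpel1 to Hspa9 was 0.116 ± 0.00606 in controls and 0.0774 ± 0.0181 in mutants (SD, n = 3 each), without overlap (exact permutation p = 0.1, adjusted p = 0.25 over the same ratios).

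Trap1 (ENSMUSG00000005981), the Hsp90 of the matrix, showed narrow groups. Its FPKM was 35.3, 33.5 and 34.1 among the controls and 41.6, 40.6 and 40.4 among the mutants. All mutant values, the library labelled mutant replicate 3 included, lay above all control values. The log2 fold change was 0.25 (standard error 0.07, 95% interval 0.08 to 0.41), with an adjusted p of 0.198 from limma.

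The chaperonin, a chamber built from Hspd1 (Hsp60) with a lid of Hspe1 (Hsp10), gave the most abundant mRNAs of the 10 in control hearts. Hspd1 (ENSMUSG00000025980) had 202, 250 and 227 FPKM among the controls and 236, 287 and 238 among the mutants, with overlapping groups. Its log2 fold change was 0.16 (standard error 0.12, 95% interval -0.11 to 0.44; adjusted p = 0.562 from limma), and it was 0.079 after rescaling to the same total, 0.084 without control replicate 1 and 0.072 without mutant replicate 2. Hspe1 (ENSMUSG00000073676) had 163, 191 and 168 FPKM in controls and 187, 195 and 153 in mutants, and its lowest value was in the library labelled mutant replicate 3. Its log2 fold change was 0.028 (standard error 0.12, 95% interval -0.24 to 0.30; adjusted p = 0.938 from limma), and it turned to -0.056 when libraries were rescaled to the same total. The ratio of Hspe1 to Hspd1 was 0.771 ± 0.0357 in controls and 0.704 ± 0.0763 in mutants (SD, n = 3 each), with overlap (exact permutation p = 0.3). Neither interval reaches the fold change of Lonp1, and neither shows that the chaperonin mRNAs were equal in both groups.

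The inner membrane holds AAA proteases with their active sites on either face. Afg3l2 (ENSMUSG00000024527), of the m-AAA protease that faces the matrix and processes a protein of the mitochondrial ribosome, had 28.4, 29.0 and 28.7 FPKM among the controls and 37.4, 31.1 and 37.9 among the mutants. The groups did not overlap, and here the library labelled mutant replicate 3 was the highest and mutant replicate 2 the lowest. The log2 fold change was 0.29 (standard error 0.09, 95% interval 0.07 to 0.51; adjusted p = 0.226 from limma). The red cell share of the mutant libraries was also lowest in replicate 2. With the red cell signal as a covariate the log2 fold change of Afg3l2 was 0.17 (unadjusted p = 0.101 from limma).

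The partner subunit Spg7 (ENSMUSG00000000738) had a log2 fold change of 0.11 (adjusted p = 0.682 from limma), which was 0.034 after rescaling, 0.052 without control replicate 2, 0.19 without mutant replicate 2 and 0.012 without mutant replicate 3. The ratio of Spg7 to Afg3l2 was 0.587 ± 0.0514 in controls and 0.518 ± 0.0445 in mutants (SD, n = 3 each; exact permutation p = 0.2). From the most abundant transcripts alone that ratio was 0.393 ± 0.0237 and 0.330 ± 0.0465, without overlap (exact permutation p = 0.1). Yme1l1 (ENSMUSG00000026775), the i-AAA protease that faces the intermembrane space, had 37.3, 44.3 and 40.9 FPKM among the controls and 35.0, 41.7 and 39.8 among the mutants. Its groups overlapped, and the log2 fold change was -0.070 (standard error 0.10, 95% interval -0.30 to 0.16; adjusted p = 0.785 from limma).

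**Figure D2:**
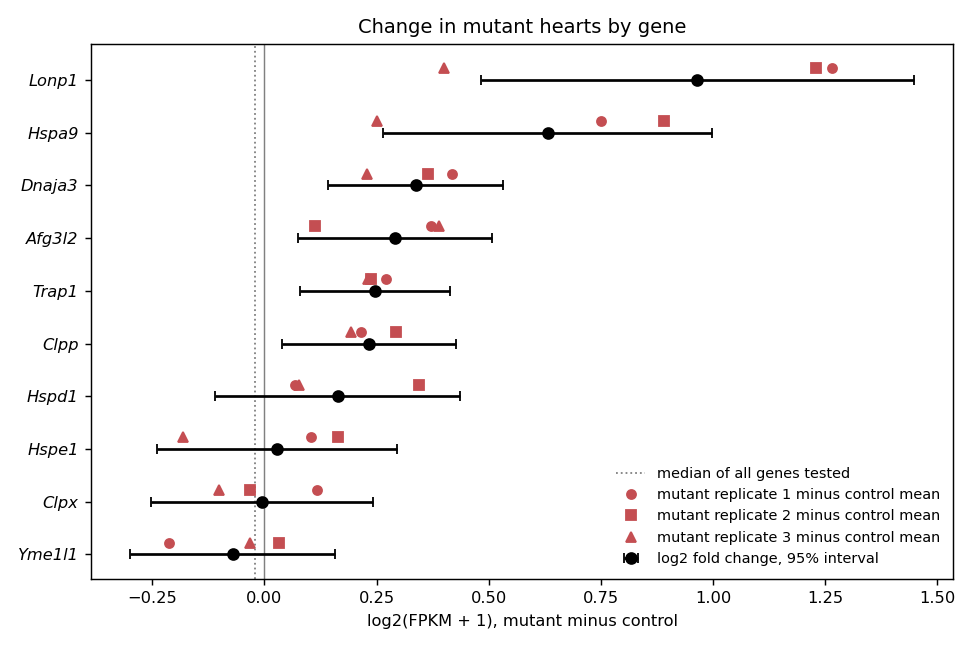
Log2 fold change (mutant minus control, log2(FPKM + 1)) of each gene with its 95% interval in black, and each mutant library minus the control mean in red. The intervals of Lonp1, Hspa9, Dnaja3, Afg3l2, Trap1 and Clpp lie above 0 before adjustment, and those of Hspd1, Hspe1, Clpx and Yme1l1 cross it.

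The order of mRNA levels shifted with these differences. In controls it ran from Hspd1 (226 ± 24.0 FPKM, SD, n = 3) through Hspe1, Hspa9, Yme1l1, Trap1, Afg3l2, Lonp1, Dnaja3 and Clpp to Clpx (15.9 ± 1.92 FPKM). Each neighbouring pair in that order was apart in all libraries except Clpp and Clpx, which overlapped. In mutants Hspa9 (192 ± 42.2 FPKM) stood before Hspe1 (153 to 195 FPKM) and Lonp1 (50.1 ± 15.4 FPKM) before Trap1 (40.9 ± 0.640 FPKM), and both pairs overlapped, as did Trap1 with Yme1l1 and Yme1l1 with Afg3l2.

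A single transcript carried 7 of the 10 genes in the table. Of the other 3, the main transcript made up 89.8% to 93.9% of Hspd1, 74.6% to 85.7% of Dnaja3 and 62.5% to 73.7% of Clpx over the libraries.

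The mutant libraries were not alike. Among the 6 genes whose groups did not overlap, the library labelled mutant replicate 3 held the lowest mutant value in 5, Afg3l2 being the exception. The same library was the lowest in 41.9% of the 1026 tested genes that were higher without overlap. With the red cell signal of each library as a covariate in limma, the log2 fold change was 1.12 for Lonp1, 0.79 for Hspa9, 0.35 for Dnaja3, 0.27 for Clpp and 0.24 for Trap1, each with an unadjusted p under 0.05. Afg3l2 (0.17), Hspd1 (0.28), Hspe1 (0.10), Clpx and Yme1l1 had an unadjusted p above 0.05 in that fit, and no gene of the 10 had an adjusted p under 0.05.

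**Figure D3:**
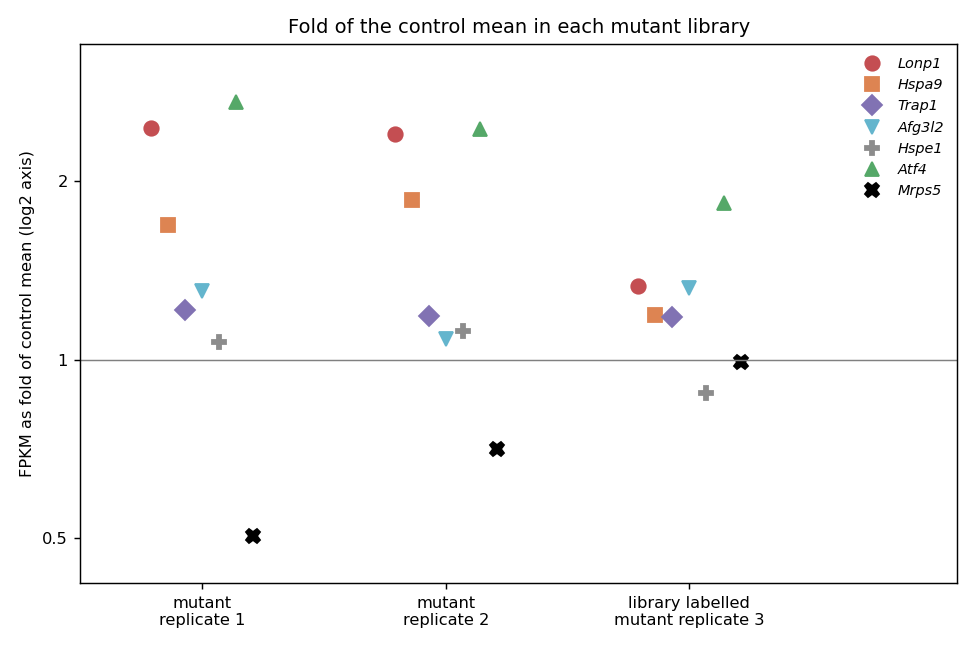
FPKM in each mutant library as a fold of the control mean, on a log2 axis, for 5 of the 10 genes, the transcription factor Atf4 and the deleted gene Mrps5. Lonp1 stands at 2.46 and 2.40 in mutant replicates 1 and 2 and at 1.33 in the library labelled mutant replicate 3, and Mrps5 is lowest in mutant replicate 1 and level with the controls in replicate 3.

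The genes that work beside the 10 were taken from lists of related roles. Of 17 co-chaperones and import chaperones, 3 were higher and 1 lower at an unadjusted p under 0.05, with a median log2 fold change of 0.036. Those 4 were 23.5% of the list, against 15.0% of all genes in either direction. Groups did not overlap in 7 of the 17, of which 4 were higher and 3 lower, against 20.8% of all genes in either direction. The 4 past the unadjusted threshold became 2 when libraries were rescaled to the same total, which lost Timm10 and Timm8a1, or when control replicate 2 or mutant replicate 3 was left out. Clpb, a disaggregase of the intermembrane space, had 6.60, 6.43 and 6.38 FPKM in controls and 8.63, 8.19 and 9.10 in mutants, a log2 fold change of 0.37 (adjusted p = 0.148 from limma) that turned to -1.37 when only its most abundant transcript was used. The small import chaperones Timm10 and Timm8a1 had log2 fold changes of 0.30 and 0.22.

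Of 23 other mitochondrial proteases and their partners, 2 were higher and none lower at an unadjusted p under 0.05, with a median of 0.017. Those 2 were 8.7% of the list, against 15.0% of all genes in either direction. The peptidase Pitrm1, which clears cut presequences, had 29.1, 32.4 and 30.3 FPKM in controls and 41.0, 38.7 and 40.6 in mutants, with a log2 fold change of 0.38 (adjusted p = 0.128 from limma). The outer membrane ubiquitin ligase gene March5 had a log2 fold change of 0.29 (0.19 without mutant replicate 3), and the prohibitin Phb2 had 0.23 with overlapping groups. After rescaling, or without control replicate 1 or 2, 1 of these proteases was past the unadjusted threshold. Neither list held a gene with an adjusted p under 0.05.

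Of 22 genes of abundant mitochondrial proteins, used to see whether mitochondrial mRNAs as a whole differed, 1 was higher and 1 lower at an unadjusted p under 0.05, with a median of 0.0099. Those 2 were 9.1% of the list, against 15.0% of all genes in either direction. The import pore gene Tomm40 had a log2 fold change of 0.19, the ADP/ATP carrier gene Slc25a4 had -0.25, and the fatty acid oxidation gene Hadhb had -0.20. Hadhb had -0.28 to -0.095 with single libraries left out and turned to 0.19 for its most abundant transcript alone. The median of the 10 genes was 0.24, and the difference between these medians was not tested. The 2 mitochondrial genes past the threshold became 1 after rescaling, where Tomm40 had 0.11, and 0 with the red cell signal as a covariate or without control replicate 1 or 3. They became 1 without control replicate 2, mutant replicate 1 or mutant replicate 2.

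Chaperones of other compartments were compared in the same way. Of 18 chaperones and degradation factors of the endoplasmic reticulum, 3 were higher and none lower at an unadjusted p under 0.05, with a median of 0.017. Those 3 were 16.7% of the list, against 15.0% of all genes in either direction. They were Herpud1 (log2 fold change 0.75), Sel1l (0.48) and P4hb (0.22). Of 25 cytosolic chaperones, 2 were higher and 1 lower, or 12% against the same 15.0%, with a median of 0.089. The lower gene was the J-protein Dnaja1 (-0.37, but 0.042 for its most abundant transcript alone), and the higher genes were the chaperonin subunit Cct2 (0.28) and the Hsp110 gene Hsph1 (0.36). After rescaling, Cct2, Hsph1 and P4hb missed the unadjusted threshold. The cytosolic count of 3 became 1 after rescaling or without control replicate 1, and 7 without mutant replicate 3. No gene of either list had an adjusted p under 0.05.

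Genes of the integrated and mitochondrial stress responses had the largest median among the related lists. Of the 19 tested, 15 were higher and none lower at an unadjusted p under 0.05, against 5.58% and 9.43% of all genes. Log2 fold changes were 0.58 to 2.64 among the 15, with a median of 1.19 over the list. Atf4 (ENSMUSG00000042406), the transcription factor translated under stress, rose from 52.5, 58.1 and 57.5 FPKM in control replicates 1, 2 and 3 to 152, 137 and 103 among the mutants (log2 fold change 1.19, adjusted p = 0.0313 from limma). Trib3, a pseudokinase gene that Atf4 activates, rose by 2.56 (adjusted p = 0.0031 from limma), and Mthfd2, of mitochondrial folate metabolism, by 1.73 (adjusted p = 0.0309 from limma). For both Atf4 and Mthfd2 the adjusted p went above 0.05 in 9 of 18 alternatives. Among them were any control library or mutant replicate 1 left out (at most 0.168), no filter on low values (0.213), the most abundant transcript alone (0.195), the red cell signal as a covariate (at most 0.153) and a constant variance prior (at most 0.0604). That of Trib3 stayed under 0.05 in all 18 alternatives.

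The factors tied most closely to the mitochondrial response, named here after their values had been seen, were Atf5 and Ddit3. Atf5 had 5.85, 6.59 and 5.50 FPKM in controls and 32.8, 30.4 and 14.6 in mutants, with an adjusted p of 0.0605 from limma. Ddit3 had 8.82, 8.20 and 8.38 FPKM in controls and 44.8, 35.7 and 15.5 in mutants, with an adjusted p of 0.106 from limma. In both genes the library labelled mutant replicate 3 was the lowest mutant library and lay above all controls. That order held in 14 of the 15 stress genes, against 41.9% of all tested genes that were higher without overlap. It also held in Lonp1, Hspa9, Dnaja3, Trap1 and Clpp.

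**Figure D4:**
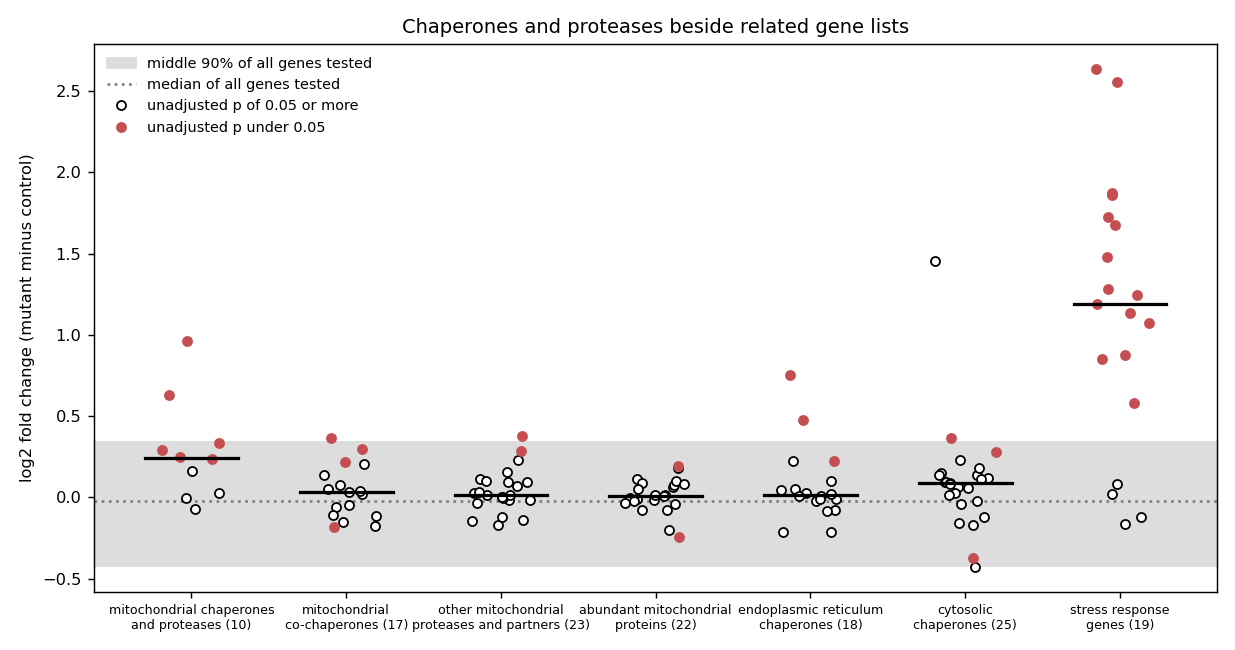
Log2 fold change (mutant minus control) of every tested gene in the 10 chaperones and proteases and in 6 related lists, with filled points for an unadjusted p under 0.05, black bars for list medians and a grey band for the middle 90% of all genes tested, -0.42 to 0.34. Of the 19 stress response genes 15 lie above the band, Lonp1 and Hspa9 lead the 10 genes, and the co-chaperones, other proteases and abundant mitochondrial proteins centre on the median of all genes.

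The genes whose profile over the 6 libraries was nearest to that of each higher gene were found by the root mean square difference of centred log2(FPKM + 1) values. Lonp1 was nearest to Pck2, the mitochondrial phosphoenolpyruvate carboxykinase (0.0572), Krt19 (0.0585) and the seryl-tRNA synthetase Sars (0.106). Pck2 had 7.72, 7.16 and 8.20 FPKM in controls and 21.9, 20.8 and 11.2 in mutants, so it shared the step down in the library labelled mutant replicate 3. Hspa9 was nearest to the tRNA exporter gene Xpot (0.0669), Paqr3 (0.0672) and the translation initiation factor gene Eif3c (0.0678).

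The distances were smaller for the other genes, but the measure grows with the spread of a profile, so distances do not rank how well profiles match. Trap1 was nearest to the citrate carrier gene Slc25a1 (0.0227), Fbxo42 and Zfpl1, Clpp to the mitochondrial ribosomal protein gene Mrpl38 (0.0229), Efhd2 and Ctnna1, Afg3l2 to Asb6 (0.0279), Slc2a4 and Med13l, and Dnaja3 to Dpysl5 (0.0391), Zfand2b and Kcmf1.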

How the data were processed

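RNA of pooled hearts was depleted of ribosomal RNA and made into strand-specific libraries. The authors deposited FPKM values per transcript for 6 libraries. The submitters' processing notes name Bowtie2 2.2.8, HISAT2, StringTie 1.3.1, Cuffdiff 2.1.1 and the build mm9, without their roles, and the annotation release is not given in the sources used here. FPKM keeps no read counts, so depth and counting error are unknown.

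The FPKM of 60776 transcripts was added up by gene identifier (26199 genes), and 27 symbols turned into dates were restored. Genes with at least 1 FPKM in at least 3 libraries (13262) were compared on log2(FPKM + 1), a scale that understates changes of low genes, with limma 3.58.1 in R 4.3.3 (trended variance) and Benjamini-Hochberg adjustment, after the code had been tested on simulated data. Ratios within libraries were compared by exact permutation. The members and lists were chosen with earlier results of these data known. Named genes were the 10 members, Mrps5, partners in ratios, list genes with an adjusted p under 0.05 or else the 3 with the smallest p, and the 3 nearest profiles of each member with an unadjusted p under 0.05. Alternatives covered the pseudocount, filter, scaling, transcript choice, covariate, replicate block, variance model, weights and each library left out. Promoters were searched by letters, on a build other than that of the table, and no gene coordinates of the table were used.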

Additional observations from a re-analysis of the deposited data

How the results depend on the processing

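Over 18 alternatives Lonp1 kept a log2 fold change of 0.82 to 1.25 and Hspa9 of 0.50 to 0.82, with an unadjusted p under 0.05 in 18 of 18. That held in 17 for Dnaja3 and Trap1, 16 for Afg3l2 and 14 for Clpp. Rescaling to equal totals left 2 of the 10 genes at that threshold, and the number with an adjusted p under 0.05 was 0 to 2 with single libraries left out, the 2 being Lonp1 and Hspa9 without the library labelled mutant replicate 3. Calls over all genes at the adjusted threshold (11) became 5 with no filter, 107 after rescaling, 4 with the most abundant transcript, 6 with a constant variance prior, 36 with array weights and 5 to 269 with single libraries left out, the 269 without mutant replicate 3 and 119 without mutant replicate 2. In the related lists 3 calls became 1 with no filter, the most abundant transcript, the erythroid covariate or the constant prior, 11 after rescaling, 9 with array weights and 1 to 15 with single libraries left out. The 740 genes higher at an unadjusted p under 0.05 became 364 after rescaling and 440 to 871 with single libraries left out, and the 1251 lower became 716 with a mean of at least 5 FPKM, 692 with the erythroid covariate and 776 to 1295. Of genes past that threshold 37.2% were higher, against 18.4% after rescaling, 49.8% with median-of-ratios scaling and 47.6% without erythroid genes.

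Signs turned for 7 named genes. Hspe1 went to -0.056 after rescaling and to -0.039 to 0.13 with single libraries left out. Clpx went to 0.030 with median-of-ratios scaling, 0.019 without erythroid genes and -0.083 to 0.079 with single libraries left out, Yme1l1 to -0.13 to 0.00062, and Grpel1 to -0.061 after rescaling and -0.014 to 0.049. With the most abundant transcript Clpb went to -1.37, Dnaja1 to 0.042 and Hadhb to 0.19. The cause was not tested.

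The replicate numbers did not meet the rule for pairing, since deviations of same-numbered libraries from their group means correlated at 0.215, 0.108 and 0.0892, although each library correlated best with its own number, a hint from the data. With the number as a replicate block, 4 genes of all and 1 of the related lists passed the adjusted threshold and no gene of the 10 did. Atf4 and Mthfd2 then had adjusted p-values of 0.0767 and 0.0619 from limma.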

Other observations

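The inducible cytosolic Hsp70 genes, named after their values had been seen, were high in a single library. Hspa1a had 0.538, 0.630 and 0.911 FPKM among control replicates 1 to 3, and 22.5, 0.958 and 0.678 among mutant replicates 1 to 3. Hspa1b had 0.787 to 1.2 FPKM in controls and 28.1, 1.68 and 0.967 in mutants. The copies are near-identical, so how reads were shared between them is uncertain. Both were thus far higher in mutant replicate 1 than in any other library.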
